A study of Mus musculus with 18 samples.

Results

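The tumour necrosis factor (TNF) superfamily consists of trimeric ligands, mostly anchored in the cell membrane, and of the receptors they bind. The members described here are all genes of the deposited expression table whose symbol begins with Tnfsf (ligands) or Tnfrsf (receptors), together with Tnf, Lta, Ltb, Ltbr, Cd40, Cd40lg, Fas, Fasl, Cd27 and Cd70. The rule gave 43 of the 56876 genes in the table, and 38 of the 43 reached 1 TPM (a share of all transcripts, corrected for transcript length) in 3 or more libraries and were tested. Of these 38, 15 were ligand genes, 22 were receptor genes and 1, Tnfsf13os, was an antisense transcript. The 5 members below the filter were Cd70, Tnfrsf11b, Tnfrsf8, Tnfsf15 and Tnfsf18.

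The study sequenced splenocyte RNA of female Balb/c mice with or without a tumour of 4T1, a mouse mammary carcinoma line, whose cells were placed in the mammary pad on day 0. The design names antibodies to G-CSF and to PD-1 and a control antibody (anti-IgG), injected into the abdominal cavity at 10 mg/kg on days 18, 21 and 24, and spleens were taken on day 29. The 18 libraries form 6 groups of 3 by their titles: T_I, T_P and T_GC from tumour-bearing mice and N_I, N_P and N_GC from mice labelled WT. The labels conflict, since the treatment tag reads anti-PD-1 for each T library and WT for each N library, all 18 are called tumour-bearing under cell type, and no label spells out the codes I, P and GC. Groups are therefore named by code. The age of the mice is not given, and no label says that libraries of a group came from separate animals, so p-values measure only the spread between these libraries. Values per library follow the order of the replicate numbers, which are 18, 92 and 96 for N_I, 17, 29 and 38 for N_P, 11, 36 and 94 for N_GC, 8, 12 and 27 for T_I, 26, 39 and 43 for T_P, and 10, 21 and 37 for T_GC.

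As background, TNF and the lymphotoxins organise lymphoid tissue and start inflammation through TNF receptors and the lymphotoxin beta receptor. BAFF and APRIL keep B cells and plasma cells alive, and pairs such as CD40 ligand with CD40, or OX40 ligand with OX40, carry costimulatory signals between lymphocytes and antigen-presenting cells. Receptors with a death domain, such as Fas, can start apoptosis, and most of the others recruit TRAF adaptors that activate NF-kB.

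Members that lie next to each other in the genome did not always differ between groups in the same direction. On chromosome 6, Cd27, Ltbr and Tnfrsf1a follow each other with 1 protein-coding gene between each pair of neighbours (Tuba3a, then Scnn1a), and Cd27 was lower whereas Ltbr and Tnfrsf1a were higher in each tumour comparison described below. On chromosome 17, Ltb, Tnf and Lta lie side by side with no protein-coding gene between them, and Tnf differed less than Ltb and Lta. In T_I, T_P and T_GC against N of the same code Tnf was at −0.16, −0.53 and −0.40 log2 units. Ltb was at −1.45, −1.43 and −0.69 and Lta at −2.32, −2.35 and −1.12. The 250 bases before the start of these 6 genes are shown for that reason, 5′ to 3′ on the strand of the gene, from RefSeq's GRCm38.p6 promoter table, which is an earlier build than the GRCm39 of the expression values. Capitals mark GGAA on either strand (written TTCC where it lies on the other strand), the core letters of the ETS factor family. The windows are Cd27 at chr6:125237028-125237277 on the minus strand, Ltbr at chr6:125313886-125314135 on the minus strand and Tnfrsf1a at chr6:125349473-125349722 on the plus strand. Ltb is at chr17:35194257-35194506 on the plus strand, Tnf at chr17:35202008-35202257 on the minus strand and Lta at chr17:35205352-35205601 on the minus strand.
Cd27: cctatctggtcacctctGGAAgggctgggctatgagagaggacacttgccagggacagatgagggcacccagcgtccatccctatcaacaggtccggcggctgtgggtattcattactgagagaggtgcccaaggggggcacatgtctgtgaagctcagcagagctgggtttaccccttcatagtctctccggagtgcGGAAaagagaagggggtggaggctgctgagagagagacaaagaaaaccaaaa
Ltbr: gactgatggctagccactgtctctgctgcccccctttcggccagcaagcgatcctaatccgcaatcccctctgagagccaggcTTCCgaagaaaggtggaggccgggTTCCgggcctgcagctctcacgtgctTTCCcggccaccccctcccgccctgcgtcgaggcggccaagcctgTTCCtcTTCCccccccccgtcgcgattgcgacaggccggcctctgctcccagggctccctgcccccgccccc
Tnfrsf1a: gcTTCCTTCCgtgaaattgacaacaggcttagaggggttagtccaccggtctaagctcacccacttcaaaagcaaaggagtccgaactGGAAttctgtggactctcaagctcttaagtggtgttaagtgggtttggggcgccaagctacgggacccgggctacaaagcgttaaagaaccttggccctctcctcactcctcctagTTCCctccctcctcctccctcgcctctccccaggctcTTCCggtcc
Ltb: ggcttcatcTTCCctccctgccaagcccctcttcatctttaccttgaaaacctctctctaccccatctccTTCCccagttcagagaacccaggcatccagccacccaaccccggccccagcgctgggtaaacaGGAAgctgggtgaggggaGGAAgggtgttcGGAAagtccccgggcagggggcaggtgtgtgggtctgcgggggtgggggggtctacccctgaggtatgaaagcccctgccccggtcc
Tnf: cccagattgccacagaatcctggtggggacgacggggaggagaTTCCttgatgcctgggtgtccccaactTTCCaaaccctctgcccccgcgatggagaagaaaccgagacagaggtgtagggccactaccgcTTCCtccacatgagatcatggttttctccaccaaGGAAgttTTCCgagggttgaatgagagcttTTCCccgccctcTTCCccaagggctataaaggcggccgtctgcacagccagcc
Lta: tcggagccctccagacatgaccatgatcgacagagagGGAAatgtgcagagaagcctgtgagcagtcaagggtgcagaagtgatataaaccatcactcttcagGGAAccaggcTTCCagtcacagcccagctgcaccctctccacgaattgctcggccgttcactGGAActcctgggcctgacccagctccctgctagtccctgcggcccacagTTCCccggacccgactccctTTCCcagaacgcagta

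GGAA occurred 2 times in the Cd27 window, 5 times each in those of Ltbr, Tnfrsf1a and Ltb, 6 times in that of Lta and 7 times in that of Tnf. Of all 32851 mouse windows of this length in the table, 93.4% held GGAA at least 1 time, 18% at least 5 times and 3.82% at least 7 times. A kappaB motif of NF-kB, searched on both strands as GGG and TTTCC with any 2 bases between them, was present in 1.41% of all windows. Among the 36 windows of the 32 members found in the table it was present in 3, those of Ltb, Tnfrsf25 and Tnfrsf9. The Ltb match overlaps 1 of the capitals. A match of letters is a description of the sequence only.

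The libraries differed widely in markers of the main spleen cell types. The summed level of 8 B cell markers ran from 3454 to 4047 TPM in N_I, from 487.5 to 981 in T_I and from 2216 to 3458 in T_GC, and that of 10 T cell markers from 941 to 1224, from 167 to 175 and from 481 to 687. The 10 neutrophil markers summed to between 2003 and 6662 TPM in N_I, 505 and 1099 in N_GC, 184843 and 191424 in T_I, 178661 and 193914 in T_P, and 35101 and 56915 in T_GC. In these bulk samples, fewer cells of a type and less RNA per cell cannot be told apart, and the part of cell composition in the differences below was not tested. The 4 epithelial markers, a check for 4T1 cells, summed to at most 3.98 TPM in any library. TPM add up to the same total in every library, so a rise of very abundant genes lowers the others. With median-of-ratios scaling instead, the median over all genes shifted by 0.43 (log2) for T_I minus N_I, by 0.39 for T_P minus N_P, by 0.08 for T_GC minus N_GC, by −0.38 for T_GC minus T_I and by −0.36 for the interaction of code GC and tumour. In T_I against N_I the number of all genes called higher went from 2893 to 5388 under that scaling, and the number lower from 8717 to 4919. Differences below are on TPM as deposited, and are to be read beside these shifts.

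In T_I against N_I, 8 of the 38 tested members were higher and 24 lower, at a limma adjusted p under 0.05. Of all genes tested, 17.4% were called higher and 52.4% lower, 69.8% in either direction. The median difference of the members was −0.90 in log2(TPM + 1), beside −0.45 over all genes. With median-of-ratios scaling the counts were 10 higher and 21 lower, beside 5388 and 4919 of all 16635 genes. That scaling moved 12 of the 32 called differences by over 1.5 times. Under it Tnfrsf18 was at −0.99, Ltb at −0.91, Tnfrsf22 at −0.75, Tnfrsf13b at −0.63, Tnfrsf14 at −0.61, Tnfrsf4 at −0.52, Tnfrsf11a at −0.48, Tnfsf11 at −0.44, Tnfrsf12a at −0.36 and Tnfrsf26 at −0.31, and the higher Tnfrsf21 and Tnfrsf10b were at 1.30 and 0.85. In T_P against N_P, 7 members were higher and 23 lower, beside 18.9% and 50.3% of all genes (69.2% in either direction), with a median of −1.02 beside −0.41. Under the other scaling the counts were 10 and 21, beside 5407 and 5041 of all 16635 genes. There Ltb was at −0.94, Tnfrsf26 at −0.75, Tnfrsf13b at −0.69 and Tnfrsf14 at −0.43. In T_GC against N_GC, 8 were higher and 14 lower, beside 14.3% and 18.9% of all genes (33.3% in either direction), with a median of −0.24 beside −0.09. Under the other scaling the counts were 8 and 10, beside 3004 and 2163 of all 16635 genes. Lack of overlap between the libraries of the compared groups was common among all genes. It held for 73.4% of them in T_I against N_I (18.7% higher and 54.7% lower). In T_P against N_P it held for 74.8% (20.9% and 53.8%), and in T_GC against N_GC for 41.5% (16.9% and 24.6%). In T_GC against T_I it held for 62.4%.

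**Figure D1:**
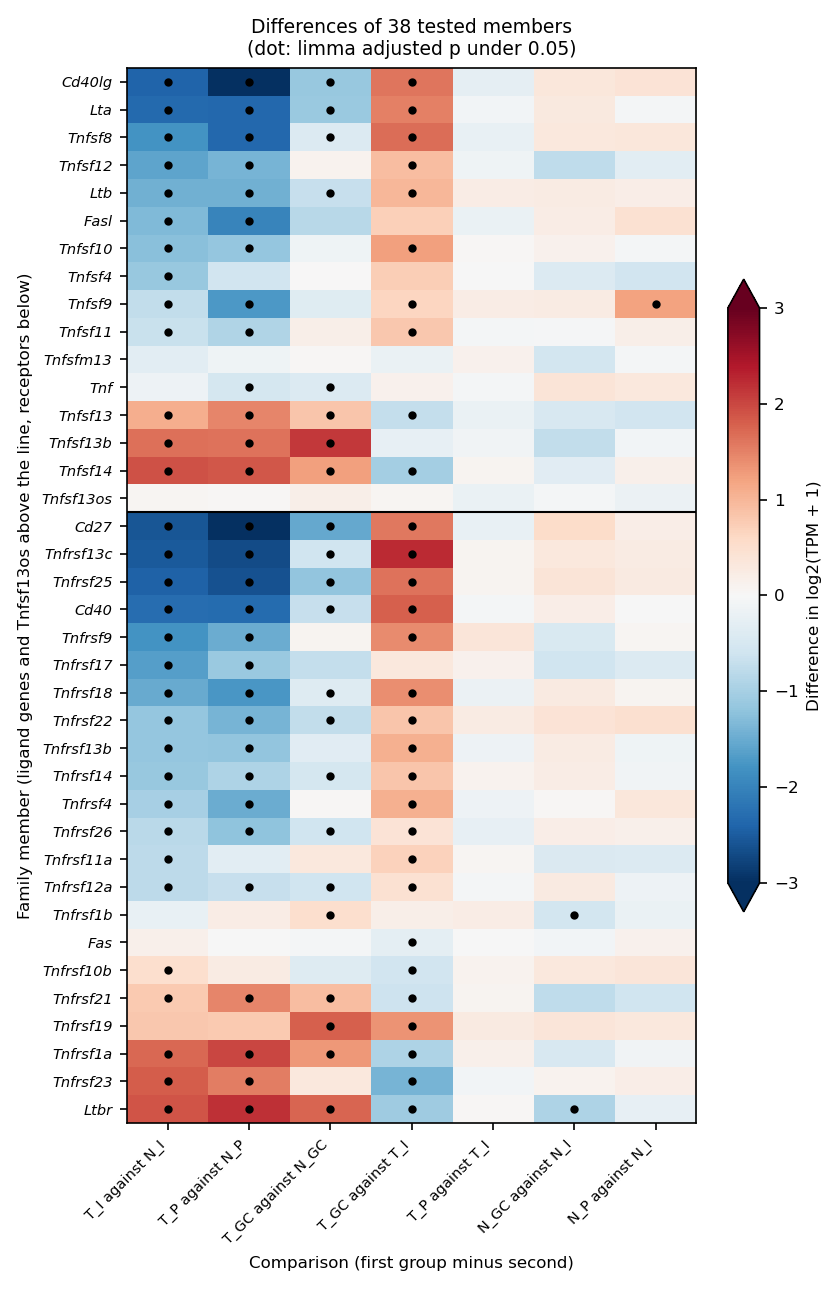
Differences in log2(TPM + 1) between groups (colour, first group minus second) for the 38 tested members in 7 comparisons, ligand genes and Tnfsf13os above the line and receptors below it; a dot marks a limma adjusted p under 0.05. The columns of T_I and T_P against N hold mostly blue cells with red ones with a dot in both columns for Tnfsf13, Tnfsf13b, Tnfsf14, Ltbr, Tnfrsf1a, Tnfrsf21 and Tnfrsf23, with a dot in T_I alone for Tnfrsf10b and without one for Tnfrsf19; the column of T_GC against T_I is mostly red, and that of T_P against T_I holds no dot.

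Among the TNF and lymphotoxin ligands, Ltb and Lta were lower in all 3 tumour groups and Tnfsf14 was higher, while Tnf differed less. Ltb, the membrane-bound lymphotoxin beta, was the most abundant ligand of the family in every group. Its level was 676, 650.2 and 627 TPM in N_I, 757, 737 and 757 in N_P, 745, 783 and 798 in N_GC, 257, 209 and 251 in T_I, 279, 258 and 295 in T_P and 429.5, 504 and 505 in T_GC. All tumour libraries lay below all N libraries, and those of T_GC lay above those of T_I and T_P. The difference from N of the same code was −1.45 ± 0.08 log2 units (± SE) in T_I, −1.43 in T_P and −0.69 in T_GC, with limma adjusted p of 1.14e-09, 1.04e-09 and 1.31e-05. Lta encodes lymphotoxin alpha, which is secreted as a homotrimer or joins lymphotoxin beta at the membrane. It stood at 18.9, 19.9 and 16.1 TPM in N_I, 16.1, 17 and 19.6 in N_P, 25.5, 22 and 20.8 in N_GC, 2.41, 2.61 and 3.59 in T_I, 2.66, 2.02 and 3.3 in T_P and 9.16, 12 and 8.73 in T_GC. Its libraries overlapped with N in none of the tumour comparisons, and it was lower by 2.32 log2 units in T_I (7.05e-09 adjusted by limma), 2.35 in T_P and 1.12 in T_GC.

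Tnfsf14 encodes LIGHT, which binds the lymphotoxin beta receptor and the herpesvirus entry mediator. Its level was 9.35, 10.6 and 11.7 TPM in N_I, 13.8, 9.92 and 11.8 in N_P, 8.1, 7.67 and 8.7 in N_GC, 42.9, 43.5 and 41.7 in T_I, 43.5, 47.5 and 44.9 in T_P and 14.8, 23.6 and 24.7 in T_GC. The 3 tumour groups lay above the N groups without overlap, with T_GC between N and the other tumour groups. Of all genes, 18.7%, 20.9% and 16.9% were higher without overlap in T_I, T_P and T_GC against N of the same code. Tnfsf14 was higher by 1.92 ± 0.15 log2 units in T_I, 1.86 in T_P and 1.24 in T_GC, with limma adjusted p of 3.75e-08, 4.8e-08 and 2.11e-05, and it was the second most abundant ligand in all 3 tumour groups. Tnf, the founding inflammatory cytokine of the family, stood at 9.78, 10.0 and 8.19 TPM in N_I, 12, 11.2 and 12.1 in N_P, 13.4, 14.1 and 10.1 in N_GC, 9.71, 7.48 and 7.65 in T_I, 9.53, 6.7 and 7.53 in T_P and 8.42, 9.29 and 9.79 in T_GC. T_I and N_I overlapped, with a difference of −0.16 (limma adjusted p = 0.329). The lower level in T_P (−0.53, adjusted p = 0.00362 by limma) and in T_GC (−0.40, adjusted p = 0.0399) was called on TPM, but not with median-of-ratios scaling, where the differences were −0.08 and −0.31, and the one of T_I became 0.33. The call in T_GC was also lost without N_GC replicates 11 or 36 or T_GC replicates 10 or 21, with differences from −0.41 to −0.31.

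BAFF and APRIL, the B cell and plasma cell survival ligands, were higher in tumour-bearing spleens. Tnfsf13b, which encodes BAFF, stood at 1.58, 3.27 and 2.73 TPM in N_I, 3.13, 1.72 and 2.13 in N_P, 0.81, 1.04 and 1.43 in N_GC, 9.8, 9.04 and 10.6 in T_I, 12.2, 8.28 and 7.38 in T_P and 7.84, 9.15 and 7.23 in T_GC. All tumour libraries were above all N libraries, and T_GC overlapped with T_I. The differences were 1.65 ± 0.21, 1.62 ± 0.21 and 2.12 ± 0.21 in T_I, T_P and T_GC against N of the same code, with limma adjusted p of 6.37e-06, 7.05e-06 and 2.8e-06. Tnfsf13, which encodes APRIL, stood at 5.61, 6.99 and 8.96 TPM in N_I, 3.22, 5.09 and 5.22 in N_P, 4.52, 5.35 and 4.59 in N_GC, 19.9, 16.6 and 12.7 in T_I, 14.4, 13.6 and 14 in T_P and 6.64, 8.89 and 13.9 in T_GC. It was higher by 1.09, 1.47 and 0.84 log2 units, with limma adjusted p of 0.000611, 4.09e-05 and 0.011. In T_GC the call was lost without T_GC replicate 37 (0.58, adjusted p = 0.052 by limma). It was also lost with only N_GC and T_GC fitted (adjusted p = 0.0526 by limma).

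Tnfsf12, Tnfsf13 and their neighbours share transcripts, so their values are less certain than those of the other members. Tnfsf12, which encodes TWEAK, a ligand of Fn14, stood at 3.23, 5.66 and 7.43 TPM in N_I, 3.91, 4.23 and 3.75 in N_P, 3.43, 2.52 and 2.11 in N_GC, 0.72, 1.63 and 0.92 in T_I, 0.65, 0.36 and 1.99 in T_P and 2.99, 2.78 and 2.93 in T_GC. It was lower in T_I by 1.59 and in T_P by 1.39 log2 units (limma adjusted p = 0.00013 and 0.000417), and N_GC and T_GC overlapped. Tnfsfm13 is the read-through of Tnfsf12 and Tnfsf13 and shares exons with both, and it was between 1.69 and 4.8 TPM in all libraries with no call in any comparison. Tnfsf13os is an antisense transcript at this locus, between 3.32 and 9.55 TPM and likewise without a call, and whether the counting used strand is not given in the sources used here.

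**Figure D2:**
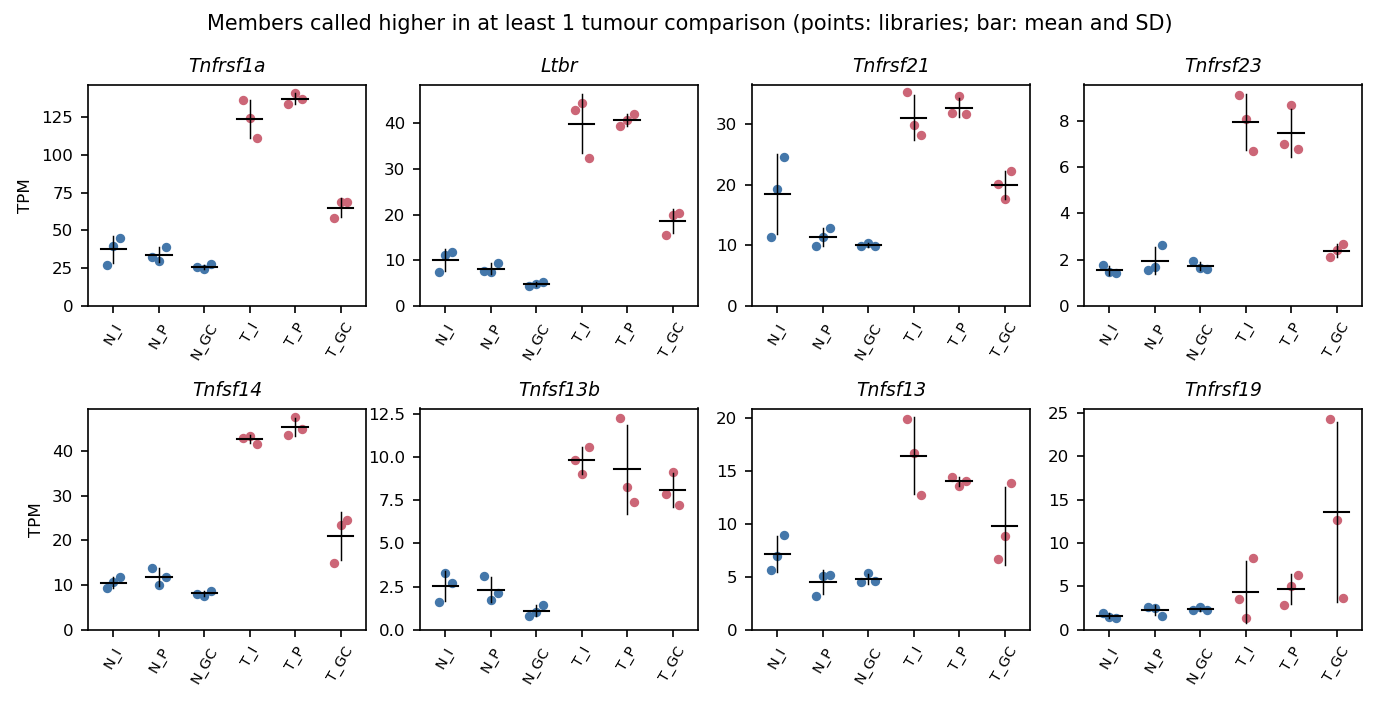
TPM (vertical axis, from 0) in each library (points), with the group mean and SD (bars), for 8 members called higher in at least 1 comparison of a T group with the N group of its code; N groups are blue and T groups red. Tnfrsf1a, Ltbr, Tnfsf14 and Tnfrsf23 were highest in T_I and T_P and lower in T_GC, Tnfsf13b was at a similar level in the 3 T groups, and the Tnfrsf19 mean in T_GC rests on 2 libraries at 24.3 and 12.7 TPM.

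Of the 4 tested costimulatory ligands, which engage receptors on T cells and B cells, 4 were lower in T_I, 3 in T_P and 2 in T_GC, and none was higher. Of all genes, 52.4%, 50.3% and 18.9% were called lower in these comparisons. Cd70, Tnfsf15 and Tnfsf18 were below the filter. Cd40lg, the CD40 ligand of activated helper T cells, stood at 15.9, 14.9 and 9.54 TPM in N_I, 18.2, 18.7 and 16.2 in N_P, 17.5, 17.4 and 15.9 in N_GC, 1.63, 1.53 and 1.86 in T_I, 1.45, 0.59 and 1.76 in T_P and 4.87, 8.29 and 8.76 in T_GC. The T_I and T_P libraries were all below 2 TPM and the T_GC libraries lay between them and N. The differences were −2.41 ± 0.22, −3.08 ± 0.22 and −1.15 ± 0.22 (limma adjusted p = 2.01e-07, 1.33e-08 and 0.00117). Tnfsf8, the CD30 ligand, stood at 9.96, 9.31 and 7.95 TPM in N_I, 12, 12 and 10.9 in N_P, 10.5, 13.4 and 10.8 in N_GC, 1.95, 2.14 and 1.64 in T_I, 1.6, 1.3 and 1.55 in T_P and 6.72, 8.47 and 10.2 in T_GC. It was lower by 1.79 log2 units in T_I and 2.35 in T_P, with limma adjusted p of 2.51e-08 and 1.31e-09. In T_GC the difference was −0.42 (adjusted p = 0.0285 by limma), and that call was lost with median-of-ratios scaling (−0.32) and without N_GC replicate 36 (−0.32), T_GC replicate 10 (−0.28) or T_GC replicate 21 (−0.43). Tnfsf4, which encodes OX40 ligand, was between 0.67 and 1.15 TPM in T_I, and in N_I it stood at 6.71 TPM in replicate 18 beside 1.99 and 1.89 in the other two. The difference was −1.14 with replicate 18 (limma adjusted p = 0.0229) and −0.67 without it (adjusted p = 0.138), and the call was also lost with median-of-ratios scaling (−0.83, adjusted p = 0.0927) and without T_I replicate 8 (−1.07) or 12 (−1.10). Its differences in T_P (−0.58) and T_GC (0.02) were not called. Tnfsf9, the ligand of Tnfrsf9, is taken up with the N groups below.

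Ligands of death receptors and of RANK were low in abundance. Tnfsf10 encodes TRAIL, an apoptosis-inducing ligand, and stood at 4.92, 6.25 and 4.82 TPM in N_I, 5.06, 5.18 and 4.98 in N_P, 5.77, 6.84 and 5.09 in N_GC, 1.74, 1.31 and 1.98 in T_I, 1.69, 1.58 and 1.89 in T_P and 6.57, 4.86 and 4.49 in T_GC. T_I and T_P lay wholly below N and T_GC overlapped with N_GC, with differences of −1.24, −1.16 and −0.14 and limma adjusted p of 2.16e-06, 4.28e-06 and 0.501. Fasl, the Fas ligand of cytotoxic T cells and NK cells, stood at 3.54, 3.27 and 4.36 TPM in N_I, 6.96, 6.53 and 3.56 in N_P, 6.79, 4.15 and 3.1 in N_GC, 2.71, 0.38 and 0.32 in T_I, 1.49, 0.35 and 0.34 in T_P and 1.54, 2.87 and 2.02 in T_GC. It was lower by 1.31 in T_I and 1.97 in T_P (limma adjusted p = 0.00646 and 0.000299), and the difference of −0.82 in T_GC was not called (adjusted p = 0.112 by limma). Tnfsf11, which encodes RANKL, the osteoclast differentiation ligand, did not exceed 1.86 TPM, and was lower in T_I (−0.66) and T_P (−0.90) with limma adjusted p of 0.00423 and 0.000407.

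Among the receptors of TNF and lymphotoxin, Tnfrsf1a and Ltbr were higher in all 3 tumour groups. Tnfrsf1a, the death-domain receptor of TNF that most cell types carry, stood at 27.4, 39.7 and 45.1 TPM in N_I, 32.7, 29.9 and 39.2 in N_P, 25.6, 24.7 and 27.4 in N_GC, 136, 125 and 111 in T_I, 134, 141 and 137 in T_P and 57.9, 68.8 and 68.9 in T_GC. The tumour groups lay above N without overlap, and it was the most abundant receptor of the family in T_I and in T_P. The differences were 1.73 ± 0.15, 1.99 ± 0.15 and 1.30 ± 0.15 (limma adjusted p = 7.4e-08, 1.46e-08 and 8.83e-06). Ltbr encodes the receptor of membrane lymphotoxin and LIGHT, which is found on stromal and myeloid cells rather than on lymphocytes. Its level was 7.39, 11.2 and 11.8 TPM in N_I, 7.66, 7.4 and 9.49 in N_P, 4.35, 4.76 and 5.22 in N_GC, 42.9, 44.5 and 32.5 in T_I, 39.4, 40.9 and 42.1 in T_P and 15.5, 19.9 and 20.4 in T_GC. All tumour libraries exceeded all N libraries, with differences of 1.89 ± 0.16, 2.19 ± 0.16 and 1.76 ± 0.16 (limma adjusted p = 7.65e-08, 1.44e-08 and 1.1e-06). The summed neutrophil markers were also higher in the tumour groups. Monocyte and macrophage markers had a mean sum of 1169 TPM in N_I and 713 in T_I, but 754 in N_GC and 1175 in T_GC. Endothelial and stromal markers had a mean sum of 100 TPM in N_I, 25.8 in T_I, 105 in N_GC and 76.7 in T_GC. The part of these cell types was not tested.

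Tnfrsf1b, the second TNF receptor, which lacks a death domain, was called in neither T_I nor T_P against N. Its level was 45.9, 55.2 and 59.5 TPM in N_I, 45.9, 40.2 and 52.4 in N_P, 34.4, 37.7 and 35.4 in N_GC, 52.2, 44.9 and 40.6 in T_I, 52.9, 53.4 and 55.1 in T_P and 49.5, 53 and 52 in T_GC. T_I and N_I overlapped (−0.22, limma adjusted p = 0.0859), and with median-of-ratios scaling the sign turned to 0.31 (adjusted p = 0.0338). In T_P the difference was 0.22 (limma adjusted p = 0.0761), and with median-of-ratios scaling it was 0.71 and called (adjusted p = 9.97e-05 by limma). In T_GC all libraries were above those of N_GC, by 0.51 log2 units (limma adjusted p = 0.002). Tnfrsf14, the herpesvirus entry mediator that LIGHT also binds, stood at 109, 113 and 117 TPM in N_I, 115, 95 and 105 in N_P, 148, 129 and 119 in N_GC, 51.1, 47.2 and 53.7 in T_I, 58.6, 57 and 49.3 in T_P and 98.1, 86.2 and 88.2 in T_GC. It was lower in every tumour group without overlap, by 1.14, 0.92 and 0.53 log2 units (limma adjusted p = 5.42e-08, 5.08e-07 and 0.000557).

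Tnfrsf13b, Tnfrsf13c and Cd40, receptors of B cells, had the highest means of the receptors in the N groups. All 4 B cell receptors (with the low Tnfrsf17) were lower in T_I and in T_P, beside 52.4% and 50.3% of all genes. Tnfrsf13c encodes the BAFF receptor, which B cells need to survive, and stood at 187, 162 and 174 TPM in N_I, 235, 199 and 190.4 in N_P, 237, 216 and 202 in N_GC, 27.7, 24.8 and 38.2 in T_I, 28, 29.8 and 36.8 in T_P and 161, 145 and 128 in T_GC. T_I and T_P libraries did not reach 40 TPM, whereas T_GC lay close below N. The differences were −2.51 ± 0.14, −2.69 ± 0.14 and −0.59 ± 0.14, with limma adjusted p of 1.4e-09, 5.78e-10 and 0.00553. Cd40, the costimulatory receptor of B cells and other antigen-presenting cells, stood at 147, 134 and 131 TPM in N_I, 142, 132 and 133 in N_P, 148, 176 and 152 in N_GC, 30.5, 18.2 and 37.2 in T_I, 25.2, 22.3 and 33 in T_P and 125, 104 and 72.7 in T_GC. T_I and T_P again lay far below N, with differences of −2.28 and −2.31 (limma adjusted p = 3.31e-07 and 2.67e-07). In T_GC the difference was −0.69 (adjusted p = 0.0275 by limma), a call that was lost without N_GC replicate 36 (−0.61), N_GC replicate 94 (−0.71) or T_GC replicate 37 (−0.47), and with no filter on low values.

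Tnfrsf13b encodes TACI, a receptor of BAFF and APRIL. Its level was 201, 174 and 183 TPM in N_I, 199.8, 153 and 157 in N_P, 234, 213 and 212 in N_GC, 72.2, 84 and 91.5 in T_I, 68.2, 73.3 and 81.4 in T_P and 225, 169 and 134 in T_GC. It was lower by 1.17 log2 units in T_I and 1.18 in T_P, with limma adjusted p of 8.13e-06 and 7.09e-06, and T_GC overlapped with N_GC. T_GC replicate 10 was the highest of the T_GC libraries for Tnfrsf13b, Tnfrsf13c and Cd40 and the lowest for Cd27, Cd40lg and Tnfrsf25. Other members of these roles went the other way. Replicate 10 was also the highest for Tnfrsf9 (8.3 TPM) and Tnfrsf4 (16.1 TPM), receptors of T cells. It was the lowest for the B cell receptor Tnfrsf17, at 0.98 TPM beside 1.59 and 1.91. Its B cell markers summed to 3458 TPM, beside 2920 and 2216 in T_GC replicates 21 and 37, and its T cell markers to 481 TPM, beside 643 and 687. Tnfrsf17, the B cell maturation antigen of plasma cells, was at most 8.18 TPM in any library. It was lower in T_I (−1.65) and T_P (−1.12), with limma adjusted p of 0.000364 and 0.00654.

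All 5 tested costimulatory receptors of T cells (Cd27, Tnfrsf25, Tnfrsf9, Tnfrsf18 and Tnfrsf4) were lower in T_I and in T_P, and Tnfrsf8 was below the filter. Of all genes, 52.4%, 50.3% and 18.9% were called lower in T_I, T_P and T_GC against N of the same code. Cd27, the receptor of CD70 on T cells, NK cells and some B cells, stood at 93.5, 125 and 88.1 TPM in N_I, 114, 119 and 118 in N_P, 136, 152 and 157 in N_GC, 15.4, 15.9 and 17.3 in T_I, 16.1, 12.8 and 12.5 in T_P and 36.4, 52.9 and 65.1 in T_GC. The 6 libraries of T_I and T_P did not exceed 17.3 TPM and those of T_GC lay between them and N. The differences were −2.57 ± 0.17, −3.0 ± 0.17 and −1.55 ± 0.17 (limma adjusted p = 5.68e-09, 1.03e-09 and 6.99e-06). Tnfrsf25, the death-domain receptor DR3 of T cells, stood at 14.6, 16.5 and 9.57 TPM in N_I, 16.6, 16.6 and 15.3 in N_P, 17.7, 18.5 and 16.9 in N_GC, 1.61, 2.05 and 1.32 in T_I, 1.39, 1.61 and 2.45 in T_P and 5.28, 6.91 and 10.2 in T_GC. It followed the same order of groups, with differences of −2.43 ± 0.21, −2.62 ± 0.21 and −1.18 ± 0.21 and limma adjusted p of 1.03e-07, 4.17e-08 and 0.000593. The 10 T cell markers were likewise all called lower in the 3 tumour groups, and their part in these differences was not tested.

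Tnfrsf18, which encodes GITR, a receptor of regulatory and activated T cells, stood at 33.8, 34.5 and 28.6 TPM in N_I, 33.7, 37.5 and 31.2 in N_P, 41.1, 37.5 and 38.8 in N_GC, 9.44, 12.5 and 10.4 in T_I, 10.5, 9.73 and 8.26 in T_P and 29.2, 27.4 and 32.7 in T_GC. It was lower by 1.50 and 1.74 log2 units in T_I and T_P (limma adjusted p = 2.3e-08 and 4.13e-09). In T_GC the difference of −0.39 (adjusted p = 0.017 by limma) was not called with median-of-ratios scaling (−0.29) or without N_GC replicate 11 (−0.35) or T_GC replicate 21 (−0.33). Tnfrsf9, an inducible receptor of T cells and NK cells also known as CD137, stood at 6.06, 10.2 and 8.65 TPM in N_I, 9.45, 10.9 and 5.84 in N_P, 6, 4.75 and 6.3 in N_GC, 1.16, 1.51 and 2.34 in T_I, 2.45, 2.35 and 2.33 in T_P and 8.3, 6 and 4.28 in T_GC. Tnfrsf4, which encodes OX40, stood at 13.8, 16 and 11.1 TPM in N_I, 23.3, 17.2 and 13.1 in N_P, 14.8, 13.3 and 13.2 in N_GC, 4.18, 7.6 and 7.5 in T_I, 5.61, 4.5 and 6.69 in T_P and 16.1, 13.2 and 12.9 in T_GC. Both were lower in T_I (−1.80 and −1.0) and in T_P (−1.49 and −1.49), with limma adjusted p from 1.02e-05 to 0.000815, and both overlapped between T_GC and N_GC.

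**Figure D3:**
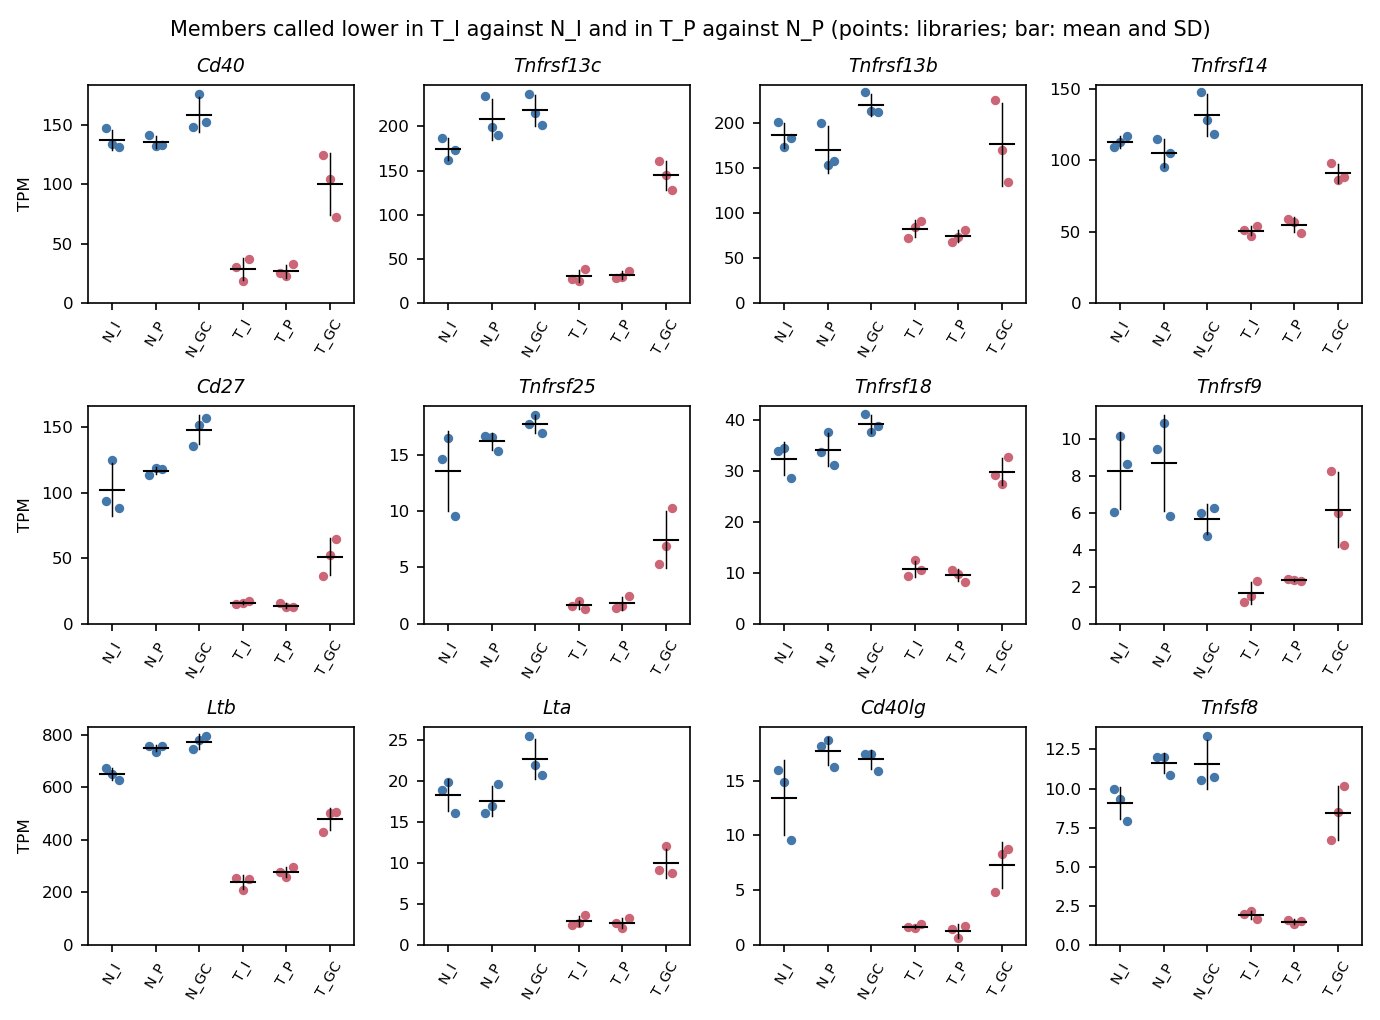
TPM (vertical axis, from 0) in each library (points), with the group mean and SD (bars), for 12 members called lower in T_I against N_I and in T_P against N_P; N groups are blue and T groups red. T_I and T_P lie below N for each of the 12, and T_GC lies between T_I and N or overlaps with N, as for Tnfrsf13b and Tnfrsf9.

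Among the death receptors and the TRAIL receptor locus, directions were mixed. Fas, the receptor of Fas ligand, stood at 14.7, 18.3 and 14.8 TPM in N_I, 17.4, 17.4 and 17.7 in N_P, 13.6, 14.4 and 16.8 in N_GC, 19.6, 18.1 and 15.4 in T_I, 17.4, 19 and 15.8 in T_P and 11.9, 15.1 and 15.9 in T_GC. No tumour comparison with N called it (differences of 0.15, −0.01 and −0.06; limma adjusted p from 0.295 to 0.94). With median-of-ratios scaling it was called higher in T_I (0.66) and in T_P (0.46), with limma adjusted p of 0.000788 and 0.0098. Tnfrsf21, the death receptor DR6, stood at 11.4, 19.3 and 24.5 TPM in N_I, 9.81, 11.3 and 12.9 in N_P, 9.88, 10.4 and 9.84 in N_GC, 35.3, 29.8 and 28.2 in T_I, 31.9, 34.6 and 31.8 in T_P and 20.2, 17.6 and 22.3 in T_GC. It was higher by 0.78, 1.46 and 0.92 log2 units (limma adjusted p = 0.00201, 7.41e-06 and 0.00185), and by 0.49 in T_I without N_I replicate 18, the lowest of N_I. Tnfrsf10b, the TRAIL death receptor of mice, was at most 2.84 TPM and higher in T_I by 0.51 (limma adjusted p = 0.00829), a call lost without T_I replicate 8 (0.37). In T_P it was called with median-of-ratios scaling (0.59, limma adjusted p = 0.00347) but not on TPM as deposited (0.25).

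Tnfrsf22, Tnfrsf23 and Tnfrsf26 lie together on chromosome 7 and are close paralogs, so reads could be exchanged between them and their separate values are uncertain. The first 2 encode decoy receptors of TRAIL in mice. Tnfrsf23 stood at 1.75, 1.45 and 1.41 TPM in N_I, 1.54, 1.7 and 2.63 in N_P, 1.94, 1.62 and 1.61 in N_GC, 9.12, 8.09 and 6.7 in T_I, 7, 8.69 and 6.8 in T_P and 2.11, 2.4 and 2.66 in T_GC. It was higher in T_I and T_P without overlap, by 1.82 and 1.53 log2 units (limma adjusted p = 5.79e-08 and 3.25e-07), and not called in T_GC (0.31, adjusted p = 0.121 by limma). Tnfrsf22 stood at 8.93, 6.53 and 4.88 TPM in N_I, 7.97, 10.6 and 10.6 in N_P, 9.02, 9.19 and 9.13 in N_GC, 2.48, 2.34 and 2.34 in T_I, 2.95, 3.85 and 2.44 in T_P and 4.2, 5.76 and 5.34 in T_GC. It differed in the opposite direction, by −1.17, −1.40 and −0.74 (limma adjusted p = 3.19e-05, 5.03e-06 and 0.00511). Tnfrsf26 stood at 16.1, 16.1 and 13.8 TPM in N_I, 18.5, 17.3 and 15.5 in N_P, 17.9, 16.6 and 18.9 in N_GC, 7.39, 9.67 and 8.12 in T_I, 6.24, 6.76 and 7.72 in T_P and 12.2, 11.4 and 10.9 in T_GC, and was lower by 0.80, 1.20 and 0.59 log2 units (limma adjusted p = 8.6e-06, 1.15e-07 and 0.000657).

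Of the remaining receptors, Tnfrsf19, the orphan receptor TROY, stood at 1.98, 1.48 and 1.41 TPM in N_I, 2.62, 2.55 and 1.62 in N_P, 2.3, 2.59 and 2.27 in N_GC, 3.51, 1.33 and 8.27 in T_I, 2.88, 5.05 and 6.31 in T_P and 24.3, 12.7 and 3.69 in T_GC. T_GC was spread widely, and the difference from N_GC was 1.80 (limma adjusted p = 0.0147) with all libraries and 1.24 (adjusted p = 0.0653) without T_GC replicate 10. Tnfrsf12a, which encodes Fn14, the receptor of TWEAK, stood at 6.92, 4.35 and 4.67 TPM in N_I, 5.26, 4.63 and 3.89 in N_P, 6.64, 6.08 and 6.79 in N_GC, 2.5, 2.31 and 3.08 in T_I, 2.93, 2.4 and 2.07 in T_P and 3.11, 3.78 and 5.12 in T_GC. It was lower in the 3 tumour groups (−0.78, −0.69 and −0.60; limma adjusted p = 0.000969, 0.0025 and 0.0152). None of those 3 calls held with median-of-ratios scaling (−0.36, −0.31 and −0.51), and the one of T_GC was also lost without T_GC replicate 10 (−0.47). Tnfrsf11a, which encodes RANK, was at most 2.78 TPM and lower in T_I by 0.79 (limma adjusted p = 0.00107).

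The order of the receptors by level differed between groups. In N_I the highest means were Tnfrsf13b at 186 ± 13.8 TPM, Tnfrsf13c at 174 ± 12.5, Cd40 at 138 ± 8.61, Tnfrsf14 at 113 ± 4.14 and Cd27 at 102 ± 20.2 (mean ± SD, n = 3). The libraries of Tnfrsf13b and Tnfrsf13c overlapped, and likewise those of Tnfrsf14 and Cd27. In T_I the order was Tnfrsf1a at 124 ± 12.6, Tnfrsf13b at 82.6 ± 9.69, Tnfrsf14 at 50.7 ± 3.26, Tnfrsf1b at 45.9 ± 5.87 and Ltbr at 39.9 ± 6.5. The libraries of Tnfrsf1b overlapped with those of both its neighbours, and Tnfrsf14 and Ltbr did not overlap. In T_GC it was again Tnfrsf13b at 176 ± 46.1 and Tnfrsf13c at 145 ± 16.2, with overlapping libraries, followed by Cd40 at 100.5 ± 26.1. Summed over all ligand genes the level was 746 ± 27.1 TPM in N_I, 331 ± 28.3 in T_I and 572 ± 55.4 in T_GC, and summed over all receptor genes 957 ± 12.5, 518 ± 12.9 and 833 ± 75.0 TPM.

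Comparing T_GC with T_I asks how the family differed between these codes in tumour-bearing mice. In T_GC 22 of the 38 members were higher and 8 lower than in T_I at a limma adjusted p under 0.05, where 48.7% of all genes were called higher and 12.7% lower, 61.5% in either direction. The median difference of the members was 0.73 log2 units, beside 0.38 over all genes. With median-of-ratios scaling 16 were higher and 10 lower, beside 3830 and 4717 of all genes, and without T_I replicate 8 the number lower was 5. This comparison shares the T_I libraries with T_I against N_I, so the values of both are given side by side and not as independent results.

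Higher in T_GC than in T_I were 3 of the 4 B cell receptors, 5 of the 5 tested costimulatory receptors of T cells, 3 of the 4 tested costimulatory ligands and 3 of 3 other tested receptors (Tnfrsf11a, Tnfrsf12a and Tnfrsf19). Of all genes, 48.7% were called higher. Tnfrsf17 (0.32) and Tnfsf4 (0.75) were not called. Tnfrsf13c was higher by 2.24 ± 0.14 log2 units, Cd40 by 1.80 ± 0.22 and Tnfrsf13b by 1.06 ± 0.15, with limma adjusted p of 2.52e-08, 7.66e-06 and 3.56e-05. All 5 costimulatory receptors of T cells were higher: Tnfrsf25 by 1.64, Cd27 by 1.57, Tnfrsf9 by 1.42, Tnfrsf18 by 1.39 and Tnfrsf4 by 1.05, with limma adjusted p from 1.64e-07 to 0.000725. Of the ligands, Tnfsf8 was higher by 1.69, Cd40lg by 1.60, Lta by 1.50, Tnfsf10 by 1.23 and Ltb by 1.0, with limma adjusted p from 1.5e-07 to 2.44e-05. The B cell, T cell and NK cell markers were likewise higher in T_GC than in T_I, in 8 of 8, 10 of 10 and 5 of 5 genes, and their part was not tested. With median-of-ratios scaling the calls of Tnfsf12, Tnfsf9, Tnfrsf11a, Tnfrsf12a and Tnfrsf19 were lost and the difference of Tnfrsf26 went from 0.42 to −0.01. Tnfrsf4 moved to 0.63, Tnfrsf13b to 0.58, Ltb to 0.53, Tnfrsf22 from 0.84 to 0.48 and Tnfrsf14 from 0.83 to 0.36. Without T_GC replicate 10 the difference of Tnfrsf19 fell from 1.35 to 0.80, and without T_I replicate 12 to 0.86, neither of them called, nor was it without T_GC replicate 21 (1.24) or T_I replicate 8 (1.34). Tnfrsf12a (0.45) lost its call without T_GC replicates 21 or 37 or T_I replicates 8 or 12 (0.29 to 0.47), and Tnfsf9 (0.65) without T_GC replicates 10 or 37 or T_I replicate 12 (0.48 to 0.60).

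The 8 members lower in T_GC than in T_I were Tnfrsf23 by 1.40 log2 units, Ltbr by 1.06, Tnfsf14 by 1.02, Tnfrsf1a by 0.92, Tnfsf13 by 0.72, Tnfrsf21 by 0.61, Tnfrsf10b by 0.58 and Fas by 0.29. The limma adjusted p ran from 2.04e-06 for Tnfrsf23 to 0.0497 for Fas. Libraries overlapped for Fas and for Tnfsf13. With median-of-ratios scaling Tnfrsf1a moved to −1.39, Tnfsf13 to −1.16, Tnfrsf21 to −1.07, Tnfrsf10b to −0.89 and Fas to −0.74. Tnfsf13 lost its call without T_GC replicate 10 (−0.50) or T_I replicate 8 (−0.58), Tnfrsf21 without T_I replicate 8 (−0.52), and Fas without T_GC replicate 10 (−0.18), T_I replicate 8 (−0.22) or any of 12 other libraries. Tnfsf13b, the BAFF gene, overlapped between T_GC and T_I, with a difference of −0.26 ± 0.21 (limma adjusted p = 0.311). With median-of-ratios scaling that difference was −0.69 and called (adjusted p = 0.0122 by limma).

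Whether the tumour difference itself was of another size under code GC than under code I was tested as an interaction, (T_GC minus N_GC) minus (T_I minus N_I). At a limma adjusted p under 0.05 it was called for 21 of 38 members, 18 with a positive and 3 with a negative value, beside 33.4% and 6.93% of all genes and 40.4% in either direction. With median-of-ratios scaling the counts were 12 and 6, beside 2286 and 3275 of all genes. The largest were Tnfrsf13c at 1.92 ± 0.20, Tnfrsf9 at 1.87 ± 0.34, Tnfsf12 at 1.69 ± 0.40 and Cd40 at 1.59 ± 0.31. The 3 negative ones were Tnfrsf23 at −1.50 ± 0.21, Tnfrsf10b at −0.90 ± 0.22 and Tnfsf14 at −0.69 ± 0.22, and the call of Tnfsf14 was lost without N_I replicate 18 (−0.61), while with median-of-ratios scaling it was −1.12. For Ltbr (−0.14 ± 0.23), Tnfrsf1a (−0.43 ± 0.21) and Tnfsf13b (0.48 ± 0.30) the interaction was not called, with limma adjusted p of 0.66, 0.11 and 0.225.

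**Figure D4:**
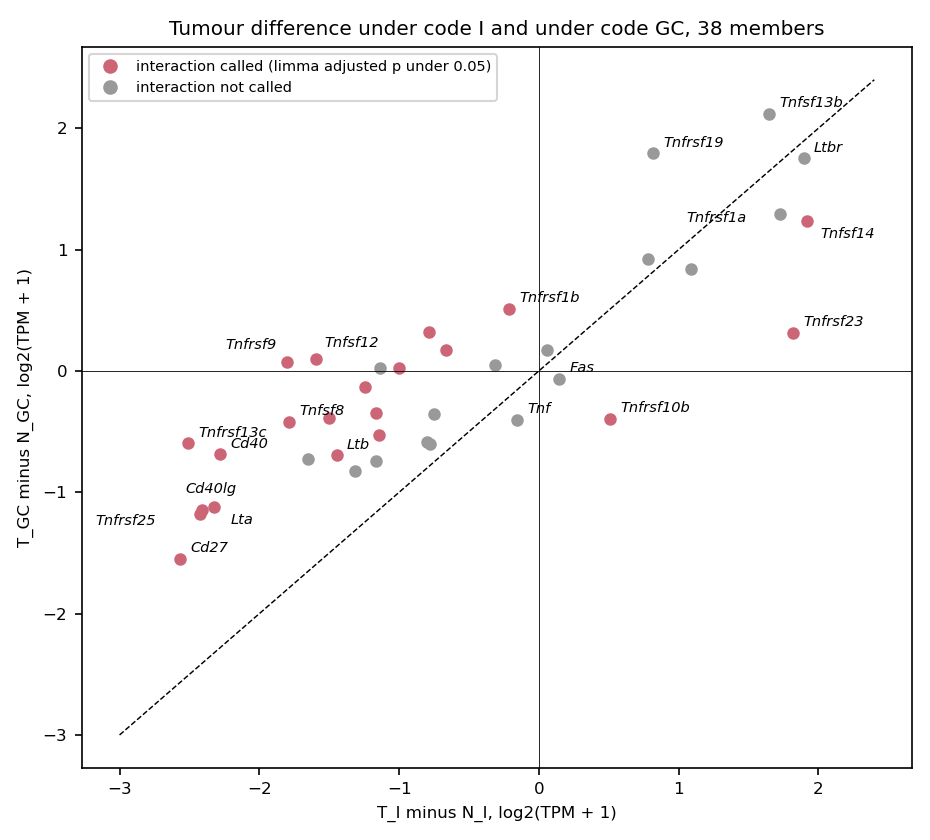
Difference T_GC minus N_GC (vertical axis) against T_I minus N_I (horizontal axis), both in log2(TPM + 1), for the 38 tested members; the dashed line marks equal differences, and red points are those whose interaction of code GC and tumour was called by limma. Most members lower under code I lie above the line, such as Tnfrsf13c at −2.51 and −0.59, and Tnfrsf23 lies below it at 1.82 and 0.31.

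Between T_P and T_I no member was called, beside 0.012% of all genes. In limma 3 members had an unadjusted p under 0.05. All genes were not counted at that threshold, so whether the members exceeded them is not known. Ltb was 277 ± 18.4 TPM in T_P and 239 ± 26 in T_I, a difference of 0.22 ± 0.08 log2 units (limma adjusted p = 0.757) with no overlap between libraries. Libraries did not overlap for 11.9% of all genes in this comparison. Tnfrsf1a (0.15 ± 0.15), Tnfrsf13c (0.07 ± 0.14) and Cd27 (−0.22 ± 0.17) all overlapped between T_P and T_I. The interaction of code P and tumour was called for no member either, beside 0.018% of all genes. For it 5 members had an unadjusted p under 0.05 in limma, again without a count over all genes to compare with. A p that misses the threshold does not show that the groups were alike.

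Between N_GC and N_I, 2 members were lower and none higher at a limma adjusted p under 0.05. Of all genes, 2.3% were lower and 0.451% higher at that threshold (2.75% in either direction). In limma 17 members had an unadjusted p under 0.05. All genes were not counted at that threshold, so whether the members exceeded them is not known. Ltbr was 4.78 ± 0.435 TPM in N_GC and 10.1 ± 2.36 in N_I (−0.92 ± 0.16, limma adjusted p = 0.00623), and Tnfrsf1b was 35.8 ± 1.7 and 53.5 ± 6.93 (−0.56 ± 0.11, adjusted p = 0.0117 by limma). Neither overlapped between the groups, in a comparison where 23.3% of all genes did not (10.2% lower and 13.1% higher). The neutrophil markers were also lower in N_GC, as given above. The number lower was 6 without N_I replicate 18 and 1 without N_GC replicate 11 or N_I replicates 92 or 96, when Tnfrsf1b was not called (−0.53 to −0.48). Without T_GC replicate 10, 1 member was called higher. Neither call held when N_GC and N_I were fitted without the other 4 groups. Tnfrsf21 (−0.75 ± 0.19, limma adjusted p = 0.0501) and Tnfsf13b (−0.73 ± 0.21, adjusted p = 0.0899) missed the threshold without overlap between libraries.

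Between N_P and N_I the only member called was Tnfsf9, which was higher. Of all genes, 0.313% were called higher, 0.258% lower and 0.571% in either direction. In limma 9 members had an unadjusted p under 0.05. All genes were not counted at that threshold, so whether the members exceeded them is not known. Libraries of N_P and N_I did not overlap for 20.6% of all genes. Tnfsf9 encodes the ligand of the T cell receptor Tnfrsf9 and stood at 2.18, 0.52 and 1.47 TPM in N_I, 4.07, 5.1 and 3.71 in N_P, 2.1, 1.44 and 1.67 in N_GC, 0.53, 0.12 and 0.47 in T_I, 0.67, 0.64 and 0.45 in T_P and 1.69, 0.59 and 1.27 in T_GC. It was higher in N_P without overlap (1.20 ± 0.25, limma adjusted p = 0.0465), a call lost on leaving out any one of 15 libraries, and also with a pseudocount of 0.1, with no filter and with only those 2 groups fitted. In T_P it was lower than in N_P by 1.73 log2 units (limma adjusted p = 1.83e-05). In T_I it was lower than in N_I by 0.75 with overlapping libraries (adjusted p = 0.0145 by limma), which was not called without N_I replicate 18 (−0.51) or T_I replicate 12 (−0.61) or with median-of-ratios scaling (−0.55). Without N_I replicate 18, 2 members were called lower in N_P than in N_I.

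The signalling genes downstream of these receptors were followed as a list of 46 adaptors, kinases, NF-kB subunits, inhibitors and sheddases, all of which passed the filter. In T_I against N_I 3 were higher and 35 lower at a limma adjusted p under 0.05, beside 17.4% and 52.4% of all genes, with a median of −0.64 log2 units beside −0.45 over all genes. These counts depended on the scaling: with median-of-ratios scaling, tried on this list after its values were seen, 13 were higher and 19 lower. Of all 16635 genes, 5388 and 4919 were called under it, and the median of the list was −0.12 beside −0.02. Bcl3, an atypical inhibitor protein of NF-kB, was higher by 0.66, Mlkl, the executor of necroptosis, by 0.71 and Ripk1, the death-domain kinase recruited by Tnfrsf1a, by 0.22. Those with the smallest p among the lower ones were Ikbkb, Traf5 and Rbck1. Ikbkb, a catalytic IKK subunit, was at 148 ± 8.98 TPM in N_I and 59.5 ± 1.31 in T_I (−1.30). Traf5, an adaptor of several costimulatory receptors, was at 62.2 ± 6.97 and 13.5 ± 2.16 (−2.13). Rbck1, a subunit of the linear ubiquitin ligase, was at 159 ± 4.98 and 72.8 ± 4.99 (−1.12). Under the other scaling these 6 genes kept their direction and call, at 1.19, 1.13, 0.74, −0.77, −1.62 and −0.58 in the order named. In T_P against N_P 3 were higher and 35 lower, beside 18.9% and 50.3% of all genes, with a median of −0.67 beside −0.41. Under the other scaling 11 were higher and 23 lower, beside 5407 and 5041 of all 16635 genes. In T_GC against N_GC 2 were higher and 26 lower, beside 14.3% and 18.9% of all genes, with a median of −0.25 beside −0.09. Under the other scaling 5 were higher and 17 lower, beside 3004 and 2163 of all 16635 genes.

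In T_GC against T_I 35 of the 46 signalling genes were higher and 1, Bcl3, lower (−0.39), beside 48.7% and 12.7% of all genes, with a median of 0.48 beside 0.38 over all genes. With median-of-ratios scaling 16 were higher and 14 lower, beside 3830 and 4717 of all 16635 genes. The median of the list was then 0.01, and Bcl3 was at −0.87 and Relb at 0.84. Traf5 was higher by 1.67, the adaptor Traf4 by 1.54 and Relb, the NF-kB subunit of the noncanonical pathway, by 1.30. Relb stood at 49.6 ± 0.382 TPM in N_I, 15.4 ± 2.41 in T_I and 39.1 ± 1.21 in T_GC. The interaction of code GC and tumour was positive for 29 of the 46 and negative for none, beside 33.4% and 6.93% of all genes. With median-of-ratios scaling it was positive for 12 and negative for 8, beside 2286 and 3275 of all 16635 genes. The 3 with the smallest p were Relb at 1.29, the inhibitor gene Nfkbie at 1.51 and the NF-kB subunit Rel at 1.13, and under the other scaling these stood at 0.87, 1.09 and 0.72. On TPM as deposited the list had a median of 0.42 beside 0.34 over all genes. Between T_P and T_I and between N_GC and N_I none was called, and between N_P and N_I 1 was lower, Tab1, a partner of the kinase Map3k7 (−0.51, limma adjusted p = 0.0274).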

How the data were processed

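RNA-seq of 18 splenocyte libraries was analysed. The deposited values are TPM per gene, which the authors made with fastp and RSEM on GRCm39, per the submitters' processing notes; versions and the strand setting are not given in the sources used here. TPM keep no read counts, so the depth is unknown and no count model was used. The 16635 genes that reached 1 TPM in 3 or more libraries were tested as log2(TPM + 1) with limma 3.58.1 in R 4.3.3, with 6 group means, an intensity trend and 12 residual degrees of freedom. The 9 comparisons were two-sided, with Benjamini-Hochberg adjustment over all genes within each. A fold change on this scale understates that of low genes. Members and lists were chosen with earlier results of these data known. Members called without overlap of libraries and reaching a group mean of 5 TPM are given per library, up to about 25, and of the signalling genes the 3 with the smallest p in each direction may be named. The procedure was tested on simulated data. The alternatives tried were median-of-ratios scaling, leaving out each library, fitting only the groups compared, a pseudocount of 0.1, and a filter of 5 TPM or none. All 43 members matched RefSeq's GRCm38.p6 gene table, used for neighbours and promoters only. No libraries were identical, and those of a group correlated over genes (not independent replicates) at 0.953 to 0.976. Python 3.11.15, pandas 2.3.3 and matplotlib 3.10.9 were also used.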

Additional observations from a re-analysis of the deposited data

Results flagged for a closer look

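For 21 of the 38 members the tumour difference under code GC departed from that under code I by the interaction test of limma (adjusted p under 0.05, values in log2(TPM + 1), n = 3 libraries a group). Of all genes, 33.4% were called positive and 6.93% negative, 40.4% in either direction. With median-of-ratios scaling 2286 of all 16635 genes were positive and 3275 negative. All 21 values rest on the same N_I, T_I, N_GC and T_GC libraries, so they also take in differences between N_GC and N_I. For Tnfrsf1b, T_GC minus T_I was 0.17 and not called, and N_GC minus N_I was −0.56. For Tnfsf12, T_GC minus T_I was 0.92, and its mean was 2.69 TPM in N_GC and 5.44 in N_I. For Tnfrsf13c, T_GC minus T_I was 2.24, above its interaction value. The part of the N groups was not worked out for the other members. Among the receptors with a positive value, Tnfrsf13c was at 1.92, Tnfrsf9 at 1.87, Cd40 at 1.59, Tnfrsf25 at 1.25, Tnfrsf18 at 1.12, Tnfrsf11a at 1.11, Tnfrsf4 at 1.03, Cd27 at 1.02, Tnfrsf13b at 0.82, Tnfrsf1b at 0.73 and Tnfrsf14 at 0.62. Among the ligands with a positive value, Tnfsf12 was at 1.69, Tnfsf8 at 1.37, Cd40lg at 1.26, Lta at 1.20, Tnfsf10 at 1.11, Tnfsf11 at 0.84 and Ltb at 0.75. The negative values were those of Tnfrsf23 at −1.50, Tnfrsf10b at −0.90 and Tnfsf14 at −0.69. With median-of-ratios scaling Tnfrsf13b (0.38), Ltb (0.31), Tnfrsf1b (0.29), Tnfrsf4 (0.64), Cd27 (0.60) and Tnfrsf14 (0.18) were no longer called, while Tnfrsf18 went to 0.70 and Tnfsf14 to −1.12. B cell markers had a positive interaction in 8 of 8 genes, T cell markers in 9 of 10, NK cell markers in 5 of 5, plasma cell markers in 4 of 5, monocyte and macrophage markers in 7 of 8, dendritic cell markers in 6 of 6 and neutrophil markers in 3 of 10, and their part in these values was not tested.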

How the results depend on the processing

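Of 138 called results of single members, 106 kept their direction and call under each alternative that gave them a value and 32 did not. Of the 106, 14 had no value under the filter of 5 TPM. Fitting only the groups compared lost 12 calls. In T_GC against N_GC these were Tnf, Tnfsf8, Tnfsf13, Tnfrsf12a and Tnfrsf19. In T_GC against T_I they were Tnfsf13, Fas, Tnfrsf12a and Tnfrsf19, and the rest were in the N comparisons. With no filter 8 calls were lost. These were Cd40, Tnf and Tnfsf8 in T_GC against N_GC, Fas, Tnfsf9, Tnfrsf12a and Tnfrsf19 in T_GC against T_I, and Tnfsf9 in N_P against N_I. No paired analysis was possible because the groups share no replicate numbers. Apart from leaving out single libraries, counts of called members kept within 1.5 times of those reported in all settings but these. In N_GC against N_I the number lower went from 2 to 4 with a pseudocount of 0.1 and to 0 with only the 2 groups fitted. In N_P against N_I the 1 higher went to 0 without a filter, with a filter of 5 TPM, with a pseudocount of 0.1 or with only the 2 groups fitted. In the interaction of code GC and tumour the number negative went from 3 to 6 with median-of-ratios scaling. Leaving out each library gave ranges of 7 to 9 higher and 22 to 24 lower in T_I against N_I, 7 to 8 and 23 to 23 in T_P against N_P, 7 to 8 and 11 to 16 in T_GC against N_GC, and 19 to 22 and 5 to 8 in T_GC against T_I. The ranges were 0 to 1 and 1 to 6 in N_GC against N_I, 0 to 1 and 0 to 2 in N_P against N_I, 18 to 20 and 2 to 4 in the interaction of code GC, and 0 to 0 in T_P against T_I and in the interaction of code P.

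Median-of-ratios scaling moved the log2 difference of the members by 0.19 to 0.54 in T_I against N_I, 0.19 to 0.49 in T_P against N_P and −0.48 to −0.17 in T_GC against T_I, and 12 of 32, 6 of 30 and 12 of 30 called values by over 1.5 times, and 8 of 21 in the interaction of code GC. For the signalling genes, where this alternative was added after seeing the data, the number higher and lower was 13 and 19 in T_I against N_I, 11 and 23 in T_P against N_P, 5 and 17 in T_GC against N_GC, 16 and 14 in T_GC against T_I, and 12 and 8 in the interaction of code GC. The numbers of all genes called with that scaling are given above. Signs turned with that scaling for Tnf in T_I against N_I (0.33) and in T_GC against T_I (−0.29), Tnfrsf1b in the same comparisons (0.31 and −0.30), Fas in T_P against N_P (0.46) and T_GC against N_GC (0.0296), Tnfsfm13 in T_I against N_I (0.091) and T_P against N_P (0.26), Tnfsf13os in T_GC against T_I (−0.36), and Tnfrsf26 in T_GC against T_I (−0.0141), which alone of these had been called. A pseudocount of 0.1 turned Tnfsf4 in T_GC against N_GC (−0.0883). Leaving out each library in turn changed the sign of some uncalled values near 0. Those of Tnfsf13os ran from −0.17 to 0.23 in T_I against N_I, −0.14 to 0.21 in T_P against N_P, −0.0829 to 0.56 in T_GC against N_GC and −0.20 to 0.44 in T_GC against T_I. Those of Tnfsfm13 ran from −0.34 to 0.0351 in T_P against N_P and −0.0948 to 0.19 in T_GC against N_GC, and those of Fas from −0.0751 to 0.0531 and −0.14 to 0.054. In T_GC against N_GC the ranges were −0.31 to 0.49 for Tnfsf4, −0.13 to 0.28 for Tnfrsf9, −0.0667 to 0.0824 for Tnfrsf4 and −0.0183 to 0.24 for Tnfsf12. The causes were not tested. The depth of the libraries is unknown, so no floor can be given for members near 0.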

Other observations

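The 5 members below the filter had low values in all groups. The highest value in any library was 0.34 TPM for Cd70, the ligand of Cd27, 0.13 for Tnfrsf11b, the decoy receptor osteoprotegerin, 0.99 for Tnfrsf8, which encodes CD30, 0.16 for Tnfsf15, the ligand of Tnfrsf25, and 0.73 for Tnfsf18, the ligand of Tnfrsf18.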
